A study of Mus musculus with 6 samples.

Results

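The genes described here are 60 antiviral genes that type I interferon is known to induce, listed by symbol and measured in mouse CD8 T cells. Of these, 58 were matched by symbol among the 11162 genes of the table, and Ifitm3 and Ifi206 were not analysed here. RNA had been sequenced from spleen cells of mice that carry Nur77-GFP (Tg(Nr4a1-EGFP)GY139Gsat), a transgene that makes green fluorescent protein from regulatory sequence of Nr4a1, the gene of the T-cell receptor-responsive protein Nur77. Cells of both groups had been sorted as CD8+, CD44lo, CD62Lhi and Qa2hi, and as OT-I, which names a T-cell receptor transgene specific for an ovalbumin peptide. By their labels the groups differ only in the gate on reporter brightness, Nur77-GFPhi against Nur77-GFPlo. There were 3 libraries of GFP-hi and 3 of GFP-lo cells, without further treatment or time points. The age and number of mice, and whether mice were pooled, are not given in the sources used here, so the spread between libraries may be technical or biological. The transgene reports on Nr4a1 regulation and is separate from the Nr4a1 gene itself. The comparison asks whether naive cells with a brighter reporter differ in their basal expression of antiviral genes.

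Type I interferons bind the receptor made of Ifnar1 and Ifnar2, whose kinases Jak1 and Tyk2 phosphorylate transcription factors, Stat2 among them. Stat2 and Irf9 take part in a complex that binds a promoter sequence called the interferon-stimulated response element (ISRE) and switches on antiviral genes. Resting lymphocytes express many of these genes at a low tonic level without infection.

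Values are RPKM, reads scaled to gene length and to library size, so levels can be compared between genes per length. An RPKM of 1 rested on 26.2 to 35.9 reads for each kilobase of transcript, as recovered from the steps in low values, and reads include PCR copies. CD8 T cell transcripts were present in all libraries, with a summed RPKM over the 7 markers Cd8a, Cd8b1, Cd3d, Cd3e, Cd3g, Cd247 and Lck of 1789 to 1901 in GFP-hi and 1764 to 1812 in GFP-lo. Across the 9351 genes tested, those averaging 1 RPKM or more, 230 were higher and 139 lower in GFP-hi at a limma adjusted p under 0.05, a split of 203 to 184 with trimmed mean of M values scaling. The GFP-hi and GFP-lo libraries numbered 2 had far more of the heat-shock transcript Hspa1a, 1100 and 1234 RPKM against 152 to 235 in the other 4.

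Among the antiviral genes 1 of 55 tested passed the threshold, Epsti1, which was lower in GFP-hi cells. None was called higher. The share called, 1.82%, compares with 3.95% of all genes tested, of which 2.46% were called higher and 1.49% lower. At an unadjusted limma p under 0.05 there were 2 antiviral genes higher and 7 lower, 9 of 55 in all. Of all 9351 genes tested, 1202 were higher and 683 lower at that level, 20.2% in all. The median log2 fold change, GFP-hi over GFP-lo on the log2(RPKM + 1) scale, was -0.05 over the 55 antiviral genes and 0.02 over all genes. The antiviral median was positive when either GFP-hi replicate 1 (0.0030) or GFP-lo replicate 3 (0.02) was left out. Of the antiviral genes 21 lay above and 34 below 0, against 5187 and 4164 of all genes tested. In 10 of the 55 genes the libraries of the groups did not overlap, 7 with GFP-hi below and 3 with GFP-hi above, which is 18.2% against 26.9% of all genes tested (9.84% below and 17.1% above). These sorted cells are a bulk sample, in which fewer cells with a transcript and less of it per cell cannot be told apart.

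**Figure D1:**
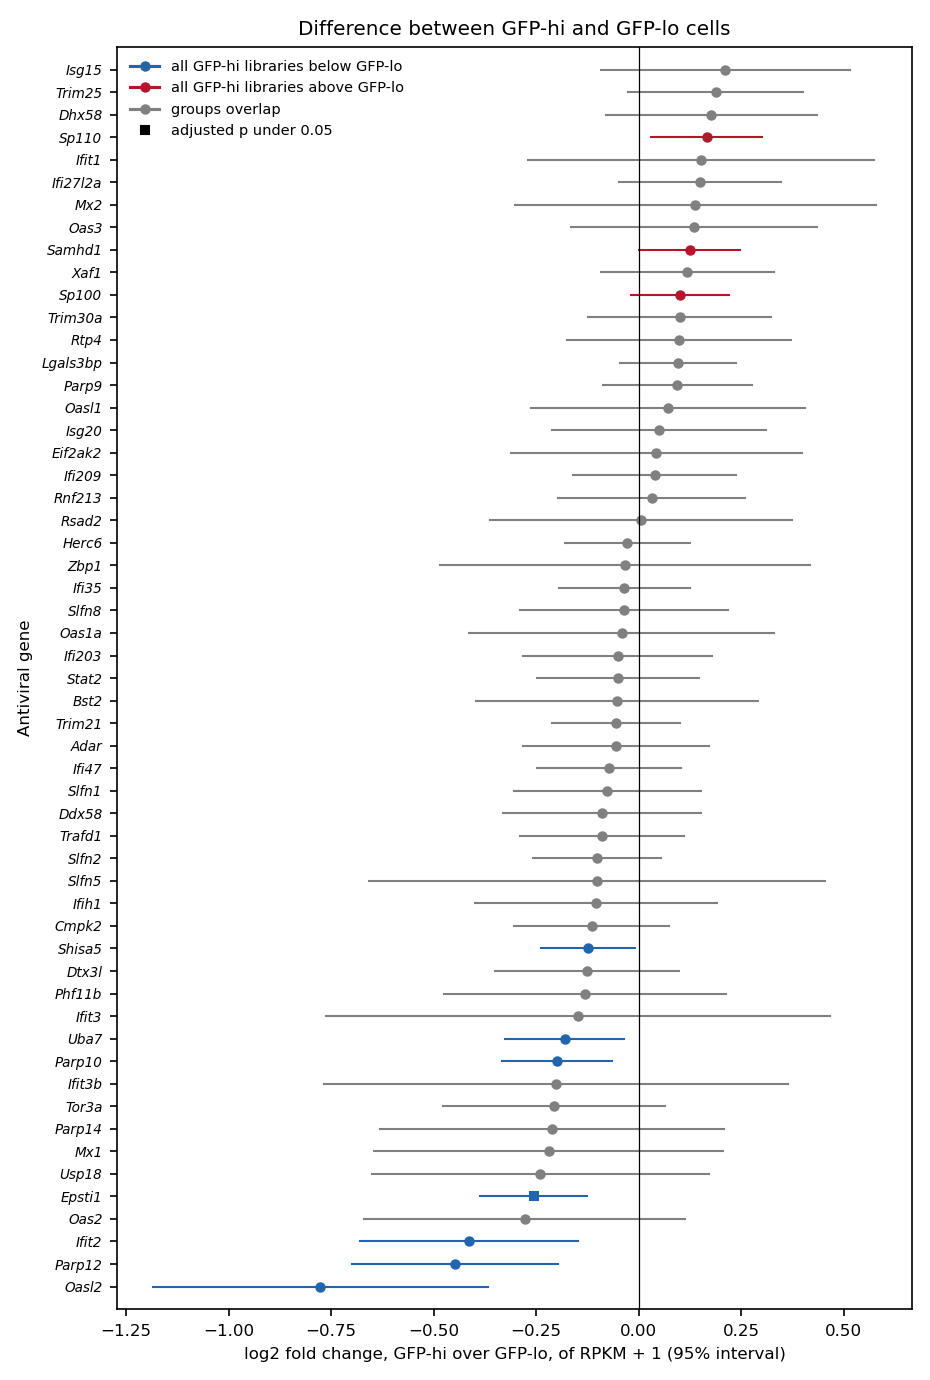
Log2 fold change of each of the 55 antiviral genes tested, GFP-hi over GFP-lo, with its 95% interval from limma; colour marks whether the 3 libraries of one group all lay below or above those of the other, and the square marks an adjusted p under 0.05. Values run from -0.78 for Oasl2 to 0.21 for Isg15, and the square is Epsti1.

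Promoter sequences of these genes were searched for short motifs. A RefSeq table of GRCm38.p6, 250 bases before to 50 bases after each start, held promoters for 47 of the 60 genes, and the other 13 were Ifi204, Mx1, Parp10, Parp9, Ifi27l2a, Dhx58, Zbp1, Parp14, Mx2, Tor3a, Usp18, Oas2 and Rtp4. The ISRE core, GAAA and again GAAA parted by 2 bases of any kind, searched on both strands with overlapping matches counted, was found in 21 of 47 antiviral genes (44.7%) and in 1079 of all 27025 genes of the table (3.99%). The core of the gamma-activated site, TTCNNNGAA, which reads the same on both strands and can overlap the ISRE core, was found in 10 of 47 (21.3%) against 9.55% of all genes. The stretches printed here lie before a RefSeq start (Ifit3, Ifit3b and Oas1a have another one upstream), read 5′ to 3′ on the strand of the gene, and have the ISRE core in capitals. They are shown for Isg15, Ifit1, Ifit3, Ifit3b, Rsad2 and Oas1a as well-known targets that hold the core, and for Oasl2 and Epsti1 because these had the most negative fold change and the only call.
Isg15, chr4:156200859-156200938, minus strand: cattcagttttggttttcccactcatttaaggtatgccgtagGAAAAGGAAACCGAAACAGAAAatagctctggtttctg
Ifit1, chr19:34640759-34640838, plus strand: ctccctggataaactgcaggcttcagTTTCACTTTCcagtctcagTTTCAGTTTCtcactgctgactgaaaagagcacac
Ifit3, chr19:34583359-34583438, plus strand: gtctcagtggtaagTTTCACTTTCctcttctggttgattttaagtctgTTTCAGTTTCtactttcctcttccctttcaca
Ifit3b, chr19:34607755-34607834, plus strand: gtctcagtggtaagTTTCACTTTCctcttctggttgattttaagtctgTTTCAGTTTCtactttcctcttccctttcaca
Rsad2, chr12:26456523-26456602, minus strand: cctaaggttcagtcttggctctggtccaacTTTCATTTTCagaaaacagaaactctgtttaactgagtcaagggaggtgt
Oas1a, chr5:120907526-120907605, minus strand: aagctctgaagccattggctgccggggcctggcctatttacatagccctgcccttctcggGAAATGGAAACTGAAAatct
Oasl2, chr5:114896804-114896923, plus strand: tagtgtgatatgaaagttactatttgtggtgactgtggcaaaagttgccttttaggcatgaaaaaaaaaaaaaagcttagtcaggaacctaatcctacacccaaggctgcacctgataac
Epsti1, chr14:77904119-77904238, plus strand: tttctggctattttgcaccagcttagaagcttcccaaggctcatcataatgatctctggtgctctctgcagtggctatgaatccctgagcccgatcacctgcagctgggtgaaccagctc
The stretch of Isg15 held 3 overlapping cores and those of Ifit1, Ifit3 and Ifit3b held 2 each. Over the 80 bases printed, Ifit3 and Ifit3b were identical. No core was found in the window of Oasl2 or Epsti1, which says only that these letters are not within it.

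Epsti1 (Entrez 108670, chr14:77904239-78002656 on GRCm38.p6), epithelial stromal interaction 1, is an interferon-induced gene. Its GFP-hi values were 104, 109 and 112 RPKM, and its GFP-lo values were 132, 123 and 132. Every GFP-hi value lay below every GFP-lo value. Averaged, this is 108 ± 4.08 against 129 ± 5.21 RPKM (SD, n = 3 each). On the log2 scale the change was -0.26, its standard error 0.057 and its limma adjusted p 0.049. The call sat at the threshold: it was lost in each of the 6 fits without 1 library, with adjusted p values of 0.075 to 0.18, although the fold change stayed between -0.29 and -0.23. Among the antiviral genes it was 1 of the 6 with the highest mean RPKM.

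OAS enzymes make the messenger that activates the RNA-degrading enzyme RNase L, and Oasl1 and Oasl2 are their OAS-like relatives. Oasl2 (Entrez 23962) had the most negative fold change of all members, with 2.88, 3.21 and 4.50 RPKM in GFP-hi and 5.75, 5.74 and 8.90 RPKM in GFP-lo. The groups did not overlap, and the libraries numbered 3 were the highest of each. The log2 fold change was -0.78 (standard error 0.18, 95% interval -1.18 to -0.37), with a limma adjusted p of 0.054. It passed without GFP-hi replicate 3 (-0.92, adjusted p = 0.039) and without both libraries numbered 3, an alternative chosen after seeing the data (-0.74, adjusted p = 0.014). Oas2 had 13.8, 14.7 and 20.4 RPKM in GFP-hi and 17.97, 17.0 and 24.9 in GFP-lo (log2 fold change -0.28, limma adjusted p = 0.42), so GFP-hi replicate 3 lay among the GFP-lo values. Oas3 had a positive fold change, 30.7, 25.04 and 35.3 RPKM against 28.1, 23.7 and 30.4 (0.14, adjusted p = 0.62), with overlapping groups. Oas1a had 7.37, 7.38 and 10.7 against 7.44, 7.99 and 10.8 RPKM, a log2 fold change of -0.04, and Oasl1 differed by 0.07. The values of Oas1a are uncertain, since 57.6% of the 50-base windows of its transcript also occur in Oas1g.

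IFIT proteins bind viral RNA and block its translation. Ifit2 had 9.10, 9.11 and 11.2 RPKM in GFP-hi and 12.5, 11.9 and 15.8 in GFP-lo, again without overlap (log2 fold change -0.41, standard error 0.12, limma adjusted p = 0.096). Ifit1, on the same chromosome, had 30.6, 39.7 and 47.6 RPKM in GFP-hi and 28.2, 34.1 and 43.4 in GFP-lo. Its groups overlapped and the log2 fold change was 0.15 (95% interval -0.27 to 0.57, adjusted p = 0.71). Ifit3 ranged from 38.0 over 47.4 to 68.0 RPKM within GFP-hi and from 39.6 over 53.4 to 79.4 within GFP-lo (-0.15, 95% interval -0.76 to 0.47). Replicate 3 was the highest and replicate 1 the lowest in both groups, and the libraries of 1 group lay farther apart than the group means. Ifit3b showed the same order, with 10.7, 12.2 and 19.4 against 11.96, 15.1 and 21.9 RPKM. Reads of these genes are hard to part, because 51.2% of the windows of Ifit3 occur in Ifit3b.

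The PARP enzymes transfer ADP-ribose to proteins or nucleic acids, and Dtx3l is the ubiquitin ligase that pairs with Parp9. Parp12, which acts against alphaviruses, had 5.45, 5.89 and 6.77 RPKM in GFP-hi and 7.40, 8.49 and 9.98 in GFP-lo. The groups did not overlap, and the log2 fold change was -0.45 (standard error 0.11, limma adjusted p = 0.066). Parp10 also had all GFP-hi libraries below GFP-lo, with means of 26.6 ± 0.821 and 30.7 ± 1.64 RPKM (-0.20, adjusted p = 0.11). Parp14 did not: its GFP-hi values of 16.3, 10.9 and 17.7 RPKM overlapped the GFP-lo values of 14.9, 16.002 and 21.2. Of the 5 genes of this group, 4 had a negative fold change, and Parp9 a positive one of 0.09.

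**Figure D2:**
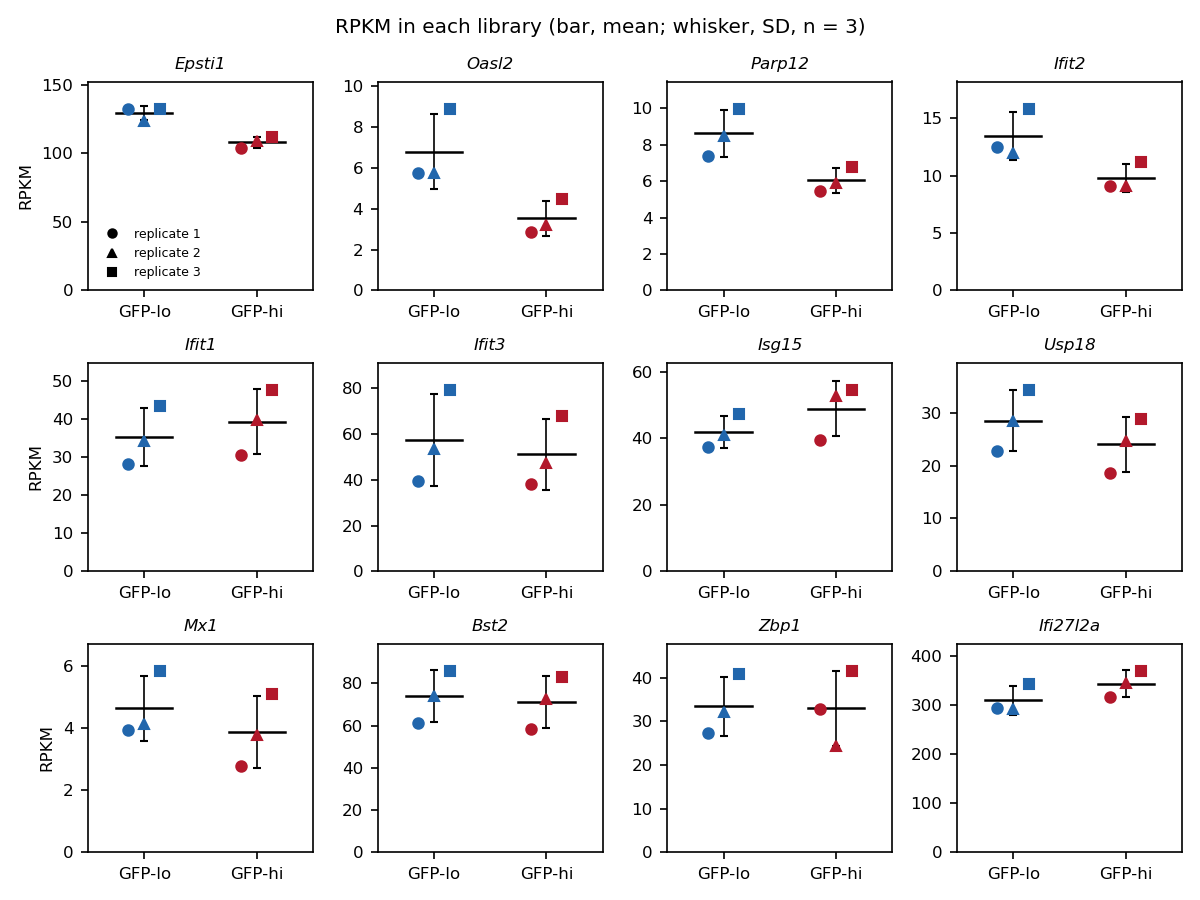
RPKM of 12 antiviral genes in each library, with GFP-lo on the left and GFP-hi on the right of each panel; bars are means, whiskers the SD over 3 libraries, and symbols the replicate numbers. The groups do not overlap for Epsti1, Oasl2, Parp12 and Ifit2, overlap for the other 8, and the square of replicate 3 is the highest symbol of its group in all 24 cases.

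Isg15, a ubiquitin-like protein, is joined to targets by Uba7, Ube2l6 and Herc6 and removed by Usp18. Isg15 had the largest positive fold change of the antiviral genes, 0.21 (standard error 0.13, limma adjusted p = 0.43), with 39.4, 52.9 and 54.7 RPKM in GFP-hi and 37.5, 41.1 and 47.3 in GFP-lo. GFP-hi replicate 1 lay below 2 of the GFP-lo libraries. Usp18, which also restrains interferon receptor signalling, had a negative fold change, with 18.6, 24.6 and 28.8 against 22.7, 28.5 and 34.3 RPKM (-0.24, adjusted p = 0.51). The activating enzyme Uba7 had lower values in all GFP-hi libraries, 26.7 ± 1.44 against 30.4 ± 1.61 RPKM (-0.18, adjusted p = 0.16). Herc6 differed by -0.03. Ube2l6 had a mean of 0.621 RPKM and was not tested. Trim25, a ligase that activates the RNA sensor RIG-I, had 31.0, 25.9 and 32.0 against 24.7, 24.3 and 28.4 RPKM (0.19, adjusted p = 0.31).

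The sensors of viral nucleic acid did not pass the threshold in either direction, with log2 fold changes from -0.10 to 0.18 over the 6 genes. Ddx58, which encodes RIG-I, had 27.8, 24.5 and 31.1 RPKM in GFP-hi and 26.5, 29.1 and 33.4 in GFP-lo. Ifih1, which encodes MDA5, was expressed far less, at 1.94, 2.30 and 2.75 against 2.17, 2.38 and 3.22 RPKM. Dhx58, their relative LGP2, had 17.1, 17.9 and 22.4 against 15.6, 15.7 and 19.0 RPKM (0.18, limma adjusted p = 0.43). In each of these genes the highest library of both groups was the one numbered 3. Eif2ak2, the RNA-dependent kinase PKR, had 4.96, 4.39 and 6.02 against 3.89, 4.74 and 6.36 RPKM. Zbp1, a sensor of Z-form nucleic acid, ranged from 24.3 to 41.6 RPKM within GFP-hi and from 27.4 to 40.7 within GFP-lo, with means of 32.9 and 33.4 (95% interval of the log2 fold change -0.48 to 0.42).

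Mx1 and Mx2 encode GTPases that trap viral components. Mx1 had 2.77, 3.78 and 5.10 RPKM in GFP-hi and 3.94, 4.13 and 5.85 in GFP-lo (-0.22, limma adjusted p = 0.57). Mx2 had 2.10, 3.61 and 3.58 against 2.03, 2.54 and 3.59 RPKM (0.14, adjusted p = 0.75). Rsad2, the antiviral enzyme viperin, had 2.90, 3.52 and 4.56 against 2.84, 3.57 and 4.53 RPKM, with overlapping groups and a 95% interval of -0.36 to 0.37 for the log2 fold change. Its neighbour Cmpk2, a nucleotide kinase, differed by -0.12. Samhd1, which depletes nucleotides needed for reverse transcription, was among the 3 genes with all GFP-hi libraries above GFP-lo, 20.5 ± 0.527 against 18.7 ± 0.679 RPKM (0.12, adjusted p = 0.24).

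The remaining genes include the most abundant ones. Ifi27l2a had 315, 344 and 369 RPKM in GFP-hi and 293, 292 and 342 in GFP-lo (0.15, limma adjusted p = 0.38), and GFP-hi replicate 1 and GFP-lo replicate 3 overlapped. Shisa5 had 203, 206 and 210 against 224, 223 and 228 RPKM (-0.12, adjusted p = 0.22) and the smallest spread within groups of all members, with an SD of 0.023 in log2(RPKM + 1). Slfn2, a Schlafen protein linked to T-cell quiescence, had 224, 203 and 218 against 225, 220 and 248 RPKM, and Slfn1 had 97.6, 107 and 114 against 99.4, 110 and 128. All 4 Schlafen genes had a negative fold change, from -0.10 to -0.04, and the lowest adjusted p among them was 0.45. Among nuclear proteins, Sp110 had 37.6, 40.0 and 41.1 against 35.8, 33.4 and 36.4 RPKM (0.17, adjusted p = 0.17) and Sp100 had 110, 110 and 113 against 100, 103 and 108 (0.10, adjusted p = 0.33), both with GFP-hi above GFP-lo throughout. Bst2, tetherin, which holds budding virus at the cell surface, had 58.2, 72.6 and 82.8 against 61.4, 74.0 and 85.9 RPKM (-0.05, adjusted p = 0.89). Stat2, the transcription factor of the pathway, had 14.7, 13.8 and 17.2 against 15.8, 14.8 and 16.7 RPKM (-0.05, adjusted p = 0.80). The HIN-200 genes Ifi203 and Ifi209 differed by -0.05 and 0.04. The other 12 genes tested (Adar, Rtp4, Trim21, Trim30a, Phf11b, Rnf213, Trafd1, Ifi35, Ifi47, Xaf1, Lgals3bp and Tor3a) all had overlapping groups, with log2 fold changes from -0.21 for Tor3a to 0.12 for Xaf1 and limma adjusted p values of 0.38 or more. Sp110 (43.9%), Phf11b (47.0%) and Ifi209 (35.1%) share many 50-base windows with other genes, so their values are uncertain as well. Ifi204 and Ifi44 had means of 0.647 and 0.384 RPKM and were not tested.

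The intervals show how large a difference these libraries leave room for. The 95% interval of the log2 fold change lay within 0.5 of 0 on both sides for 42 of 55 genes and within 1 for 54 of 55, the exception being Oasl2.

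A larger pattern ran between libraries of the same group. GFP-hi replicate 3 exceeded GFP-hi replicate 1 in 54 of 55 antiviral genes and GFP-hi replicate 2 in 50, with median log2 differences of 0.25 and 0.19. Likewise GFP-lo replicate 3 exceeded GFP-lo replicate 1 in 51 and GFP-lo replicate 2 in 54 of 55, with medians of 0.26 and 0.21. Over all genes tested the same 4 differences had medians between -0.03 and 0.0073, and 43.1% to 53.1% of genes were higher. Replicate 3 was thus the highest library of GFP-hi in 49 and of GFP-lo in 50 of 55 genes, and the lowest in 0 of both, while over all genes it was the highest in 24.8% and 32.2%. In 30 of 55 genes (54.5%) the 2 libraries numbered 3 were the highest of all 6, against 5.84% of all genes. These libraries were singled out because their antiviral medians were the highest, so these counts describe the pattern and do not test it. Among those 30 were Isg20, Ifit1, Ifit3, Ifih1, Mx1, Oas1a, Rsad2, Stat2, Usp18 and Bst2. Libraries were numbered by record order, and whether libraries of the same number belong together is not given.

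**Figure D3:**
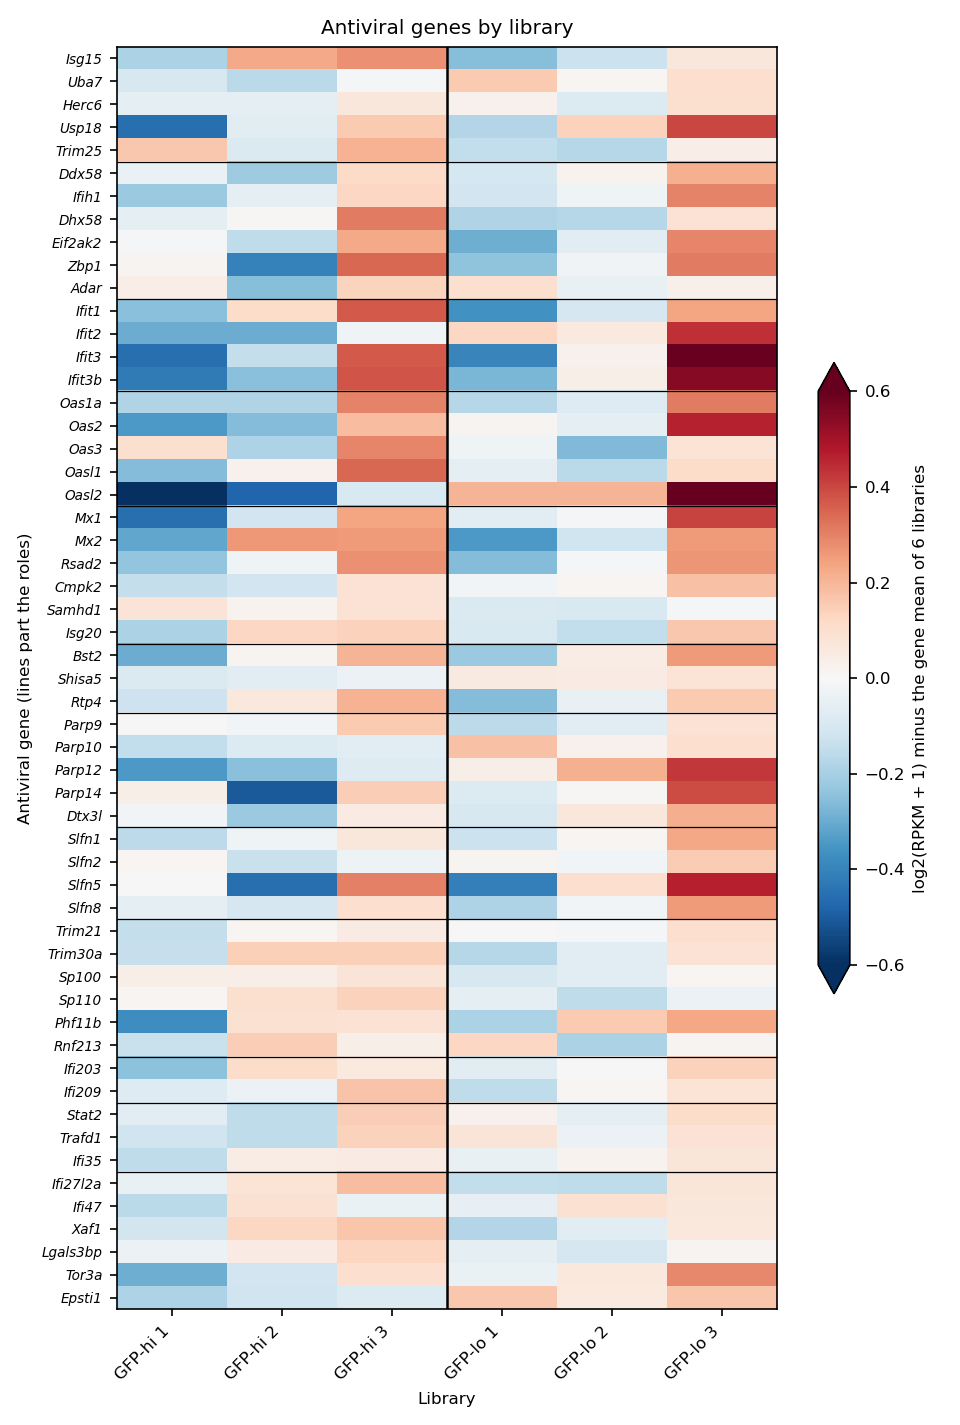
Level of each of the 55 antiviral genes in each library, as log2(RPKM + 1) minus the mean of the gene over 6 libraries, with genes ordered by role and the groups parted by the vertical line. The columns GFP-hi 3 and GFP-lo 3 are red for most genes, with medians of 0.14 and 0.16, and GFP-hi 1 is mostly blue, with a median of -0.14.

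The median deviation of the antiviral genes from their mean over the 6 libraries was -0.14, -0.07 and 0.14 in GFP-hi and -0.09, -0.02 and 0.16 in GFP-lo. Over all genes tested it stayed between -0.02 and 0.03. Other measures also differed between these libraries. Nasal receptor genes (olfactory and vomeronasal receptors, 41 listed), which T cells are not known to use, had a median RPKM of 0.292, 0.037 and 0.419 in GFP-hi and 0.038, 0.263 and 0.583 in GFP-lo, so the libraries numbered 3 had the most. Hspa1a did not mark them, at 152 and 211 RPKM. Their depth was 29454000 and 26172000 reads, within and just below the range of the other 4 (28414500 to 35939000). The part of these measures in the antiviral pattern was not tested.

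**Figure D4:**
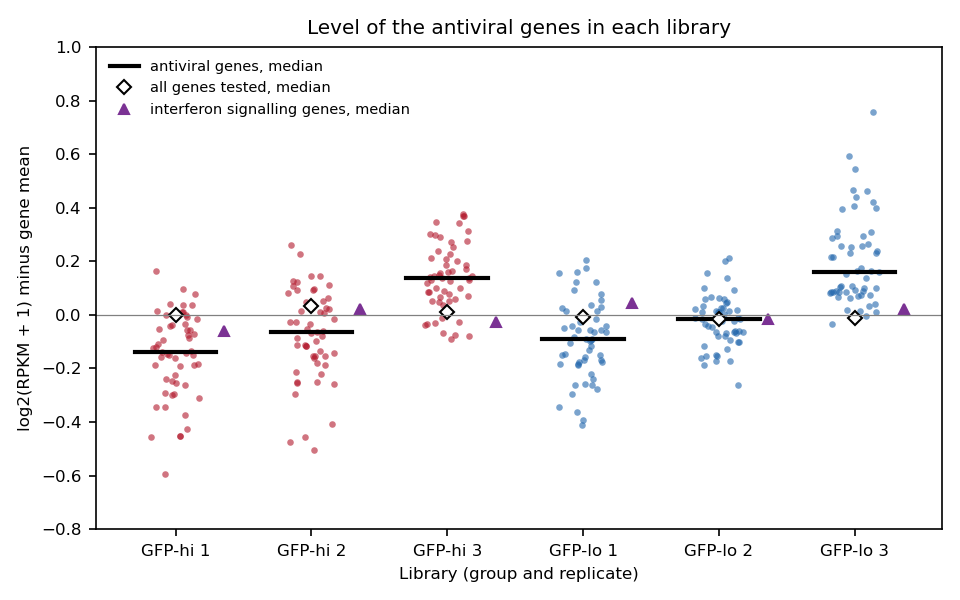
Deviation of each antiviral gene (points) from its mean over 6 libraries, by library, with the medians of the antiviral genes (bars), of all genes tested (diamonds) and of 21 interferon signalling genes (triangles). The bars run from -0.14 to 0.16, whereas diamonds and triangles stay between -0.06 and 0.04.

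The spread within groups was large for many antiviral genes. The SD within groups on the log2(RPKM + 1) scale had a median of 0.16 over the 55 genes and of 0.090 over all genes tested, a ratio of 1.82. The antiviral genes exceeded the 90th percentile of all genes in 23 of 55 cases (41.8%) and the 95th in 17 (30.9%). Ifit3 (0.46), Ifit3b (0.42), Slfn5 (0.41), Zbp1 (0.33), Mx2 (0.32) and Ifit1 (0.31) had the largest SD. Slfn5 had 14.8, 10.5 and 18.5 RPKM in GFP-hi and 10.9, 15.9 and 20.8 in GFP-lo, so its lowest libraries were GFP-hi replicate 2 and GFP-lo replicate 1. Those 2 libraries, which had the least nasal receptor RNA, were also the lowest for Ddx58, Dtx3l, Eif2ak2, Parp14, Slfn8 and Zbp1, in all 7 of 55 genes (12.7%) against 7.18% of all genes. Without both libraries numbered 3 the median SD was 0.10 against 0.096 over all genes, a ratio of 1.07. As these libraries were chosen for their high antiviral levels, a smaller SD without them follows from the choice. In that fit 1 antiviral gene passed the threshold, Oasl2. The ratio was 2.67 in the 4 libraries with lower Hspa1a (0.19 against 0.072 over all genes). It was 2.83 in the 4 with more nasal receptor RNA (0.16 against 0.058). In the latter the antiviral median SD was as in all libraries, and the SD over all genes was smaller. Both sets of 4 included the libraries numbered 3.

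The spread was read beside the promoters shown above. The median SD within groups was 0.21 over the 19 tested genes with an ISRE core and 0.12 over the 24 with a promoter but no core. Those above the 90th percentile of all genes numbered 12 of 19 and 3 of 24, of 23 among all 55 tested. Tested genes without a promoter in the table belong to neither set. Among these, Mx1, Mx2, Oas2, Parp14, Rtp4, Tor3a, Usp18 and Zbp1 were also above that percentile, and Dhx58, Ifi27l2a, Parp9 and Parp10 were not. The log2 fold change between GFP-hi and GFP-lo had a median of -0.05 in both sets, with 6 of 19 and 10 of 24 genes above 0. Of the genes whose groups did not overlap, Oasl2, Parp12, Ifit2, Epsti1, Uba7, Sp100, Sp110 and Samhd1 had no core in the window, Shisa5 had 1 at an alternative start, and Parp10 had no promoter in the table.

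**Figure D5:**
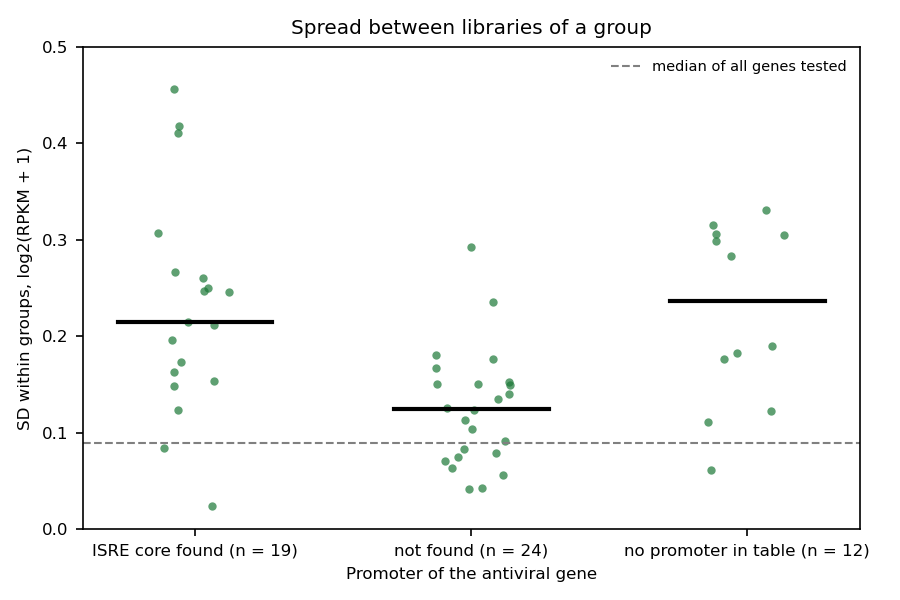
SD within groups of each antiviral gene, on the log2(RPKM + 1) scale, by whether its promoter held the ISRE core; bars are medians and the dashed line is the median of all genes tested (0.090). The median is 0.21 with the core (19 genes), 0.12 without it (24 genes), and 12 further genes had no promoter in the table.

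Upstream genes of the interferon pathway were compared from a list of 24, of which 21 were tested and 1 passed the threshold, 4.76% against 3.95% of all genes. Socs3, an inducible brake on cytokine receptors, was that gene, lower in GFP-hi with 27.3, 45.6 and 36.6 against 63.4, 76.9 and 68.2 RPKM (log2 fold change -0.93, standard error 0.16, limma adjusted p = 0.021). That call was lost when GFP-hi replicate 3 or any 1 of the GFP-lo libraries was left out. The receptor genes Ifnar1 (23.2 against 22.7 RPKM) and Ifnar2 (18.9 against 18.5) differed by 0.03 each, with intervals from -0.10 to 0.17 at the widest. The kinases Jak1 and Tyk2 differed by 0.0060 and -0.04. Irf9 differed by 0.07. Irf1, an interferon-inducible transcription factor, had 55.3, 68.4 and 56.8 against 76.8, 80.5 and 70.8 RPKM, without overlap (-0.34, adjusted p = 0.083). Irf7, which amplifies interferon production, had 33.7, 41.9 and 44.5 against 38.7, 39.5 and 44.4 RPKM. The summed RPKM of the 21 genes was 846 to 902 in GFP-hi and 916 to 938 in GFP-lo. These sums include Socs3 (means of 36.5 against 69.5 RPKM) and Irf1 (60.2 against 76.0). The median log2 fold change of the 21 genes was -0.03, against 0.02 over all genes, with 9 above and 12 below 0. Their SD within groups had a median of 0.080.

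The guanylate-binding and IRG GTPases, which interferon also induces, had 1 of 13 genes past the threshold (7.69%, against 3.95% of all genes), Gbp2, lower in GFP-hi (32.2 against 44.0 RPKM, log2 fold change -0.44). Their median was -0.16, against 0.02 over all genes, with 11 of 13 negative, against 4164 of 9351. At an unadjusted limma p under 0.05, 4 of 13 were lower, against 683 of 9351. Their median deviation was -0.15, -0.07 and 0.02 in GFP-hi replicates 1 to 3 and -0.01, 0.05 and 0.23 in GFP-lo replicates 1 to 3. Replicate 3 was thus the highest of each group, as for the antiviral genes. Markers of other cells and of memory cells were summed. Of the 9 myeloid markers 2 were measured, with a summed RPKM of 18.8 to 24.6 in GFP-hi and 18.8 to 21.0 in GFP-lo, nearly all of it Cst3. Of 6 plasmacytoid dendritic cell markers 2 were measured, with sums of 1.09 to 1.41 and 0.606 to 0.864, and of 6 B cell markers 3, with 14.4 to 16.8 and 13.1 to 13.4. For NK cells 1 of 5 was measured, at 0.216 to 0.469 and 0.479 to 0.726. Of 4 CD4 T cell markers 2 were measured and both passed the threshold in opposite directions, Cd40lg (17.8 against 39.7 RPKM, -1.13) and Izumo1r (3.40 against 0.959 RPKM, 1.17). Of 8 memory and effector CD8 T cell markers, with sums of 425 to 435 and 412 to 437, Cxcr3 was lower (10.2 against 25.7 RPKM, -1.26) and Gzmb higher (3.49 against 1.62 RPKM, 0.81) in GFP-hi. Groups did not overlap for 5 of the 8, 3 with GFP-hi above and 2 with GFP-hi below, against 26.9% of all genes tested. The remaining markers of these lists were not analysed here. The summed myeloid markers, nearly all Cst3, were 18.8 in both libraries numbered 3, the lowest of each group. The CD4 T cell sum was also lowest there, at 17.2 in GFP-hi and 36.25 in GFP-lo. The plasmacytoid dendritic cell, B cell, NK cell and memory and effector CD8 T cell sums were not lowest there. The memory and effector CD8 T cell sum was highest in replicate 3 of both groups, at 435 in GFP-hi and 437 in GFP-lo. In GFP-hi the plasmacytoid dendritic cell (1.41) and NK cell (0.469) sums were highest in replicate 3, and the B cell sum (16.8) in replicate 2. In GFP-lo the B cell sum (13.4) was highest in replicate 3, and the plasmacytoid dendritic cell (0.864) and NK cell (0.726) sums in replicate 2. The part of such cells in the differences between GFP-hi and GFP-lo was not tested.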

How the data were processed

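RNA of 3 GFP-hi and 3 GFP-lo sorted samples was measured. Per the labels' protocols, the SMART-seq v4 (Takara) and NexteraXT (Illumina) kits were used to prepare libraries. The authors deposited RPKM, per the file headers, in 1 column a sample; STAR and mm10 are named in the submitters' processing notes, and the read counter is not given in the sources used here. Depth was recovered by multiplying low RPKM by transcript length (GENCODE M21, 800 genes with 1 transcript): 86.7% to 91.3% of the products were within 0.1 of a whole number, where 20% would be by chance.

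Genes averaging 1 RPKM or more were tested with limma 3.58.1 (R 4.3.3) on log2(RPKM + 1), with lmFit, eBayes with trend, two-sided, unpaired, Benjamini-Hochberg adjusted over 9351 genes. Alternatives changed the pseudocount, filter, scaling, eBayes options and libraries. The fit was tested on simulated data with noise drawn separately for each gene, without shifts shared by the genes of a library. The members, lists and tests were chosen with earlier results of these data known. By rule, every member could be named, and values in every library are given for called genes, the 8 largest positive and 8 largest negative changes, the 6 highest means, the 6 largest SDs and 14 fixed genes (Ifitm3, also fixed, was not analysed here). Other members named with values (Uba7, Parp10 and Samhd1 among them) and all promoter stretches were chosen after seeing values. RNA of near-identical genes was judged by 50-base windows of transcripts.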

Additional observations from a re-analysis of the deposited data

How the results depend on the processing

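The number of antiviral genes past the threshold was 1 as reported. It was 0 without a filter, with a mean RPKM of at least 5 and without a trend in eBayes. The same held in the 4 libraries with lower Hspa1a and in the 4 with more nasal receptor RNA. At an unadjusted limma p under 0.05 these fits had, in that order, 10, 9, 8, 7 and 10 antiviral genes. The reported fit had 9 of 55, against 20.2% of all genes. The number past the threshold was 0 to 1 when 1 library was left out, the 1 being Oasl2 without GFP-hi replicate 3. Epsti1 kept its direction in all 18 alternatives, with a log2 fold change of -0.30 to -0.23 and adjusted p values of 0.029 to 0.38. The median of the antiviral genes ran from -0.13 to 0.02 when 1 library was left out and from -0.09 to -0.05 otherwise. The number of all genes past the threshold was 369, and 133 (without GFP-lo replicate 2) to 315 when 1 library was left out, 202 with a mean RPKM of at least 5, 101 with lower Hspa1a and 109 without both libraries numbered 3. Interferon signalling genes past the threshold numbered 1, with 2 under quantile normalization, 3 in the libraries with more nasal receptor RNA, 0 to 2 when 1 library was left out and 0 without both libraries numbered 3 (2 at an unadjusted p under 0.05); the additions were Irf1 and Socs1. Over all genes, the 4 libraries with more nasal receptor RNA gave 264 called higher and 158 lower, against 230 and 139 with all 6 libraries. Fits that leave libraries out hold fewer of them, and the cause of these changes was not tested. No paired analysis was run, because the labels give no replicate numbers and do not say which samples belong together. A difference shared by samples that do belong together would thus count as spread within groups. At 26.2 to 35.9 reads per kilobase and RPKM, counting error limits genes below about 1 RPKM, which were not tested.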

Other observations

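Ifi44, which was too low to be tested, had 0.463, 0.067 and 0.528 RPKM in GFP-hi, against 0.074, 0.351 and 0.818 in GFP-lo. The 6 libraries fell in the same order by Ifi44 as by the median of the nasal receptor genes given above. Ube2l6, also not tested, had 0.551, 0.426 and 0.410 RPKM in GFP-hi and 0.671, 0.722 and 0.945 in GFP-lo, without overlap, and Ifi204 had 0.569, 0.469 and 0.833 against 0.626, 0.730 and 0.657.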
